A study of Homo sapiens with 6 samples.

Results

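The HLA class I antigen presentation genes described here are 9 genes chosen by name: the heavy chains HLA-B, HLA-C and HLA-E, the light chain B2M, the peptide transporter subunits TAP1 and TAP2, the loading factor TAPBP, and the proteasome subunits PSMB8 and PSMB9. All 9 were found among the 47032 gene symbols of the deposited tables, each as a single entry. Of these, 8 passed the filter on low values, a mean of at least 1 over the 6 libraries in the level defined below, and PSMB9, at a mean of 0.392, did not.

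RNA was sequenced from 6 human prostate cancer lines in 3 pairs of a castration-sensitive line and a castration-resistant line that carries the name of the same parent. The sensitive lines were LNCaP (spelled LnCaP in the labels) and LAPC4, grown in RPMI with 10% fetal bovine serum, and VCaP, grown in DMEM with 10% fetal bovine serum. The resistant lines were LNCaP-abl, VCaP-CR and LAPC4-CR, each grown in RPMI with 10% charcoal-stripped serum, which is depleted of steroid hormones, and B27 supplement at 1X. The labels name no added treatment, interferon included. Medium and resistance differed together in every pair and cannot be told apart, and each line is 1 cell population with 1 library.

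Class I molecules carry short peptides from proteins made inside the cell to its surface, where cytotoxic T cells and natural killer cells inspect them. Peptides are cut by the proteasome, whose interferon-inducible form contains PSMB8 and PSMB9 in place of PSMB5 and PSMB6. TAP1 and TAP2 pump the peptides into the endoplasmic reticulum, where TAPBP, called tapasin, holds the transporter to an empty heavy chain bound to B2M until a peptide fits. Low class I presentation is a known feature of many prostate cancers, and most of these genes are known targets of interferon signalling.

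Levels are given as scaled FPKM, the deposited fragments per kilobase and per size of the library, divided by a factor per library. The factors ran from 0.863 to 1.083 and the total counts from 8661337 to 22433655. A level per length allows different genes to be compared. A change is the difference, resistant minus sensitive, of log2(scaled FPKM + 1), a scale that understates the change of low genes. A fold is the plain ratio of scaled FPKM. The 95% intervals on levels, folds and ratios are counting intervals, which cover counting error only, and within a pair there is no replicate and no test. Prostate epithelial markers, such as KRT8, KRT18 and EPCAM, were at 1 or more in all 6 libraries for 9 of 9 genes, with a summed level of 523 to 1028. The 13 leukocyte markers summed to 3.36 to 7.67, with 0 to 2 of them at 1 or more in a library. Those at 1 or more were CORO1A in LNCaP-abl (1.31), LAPC4 (3.69) and LAPC4-CR (1.5), and CD68 in LNCaP-abl (2.05). The leukocyte marker PTPRC (CD45) lay between 0.13 and 0.338.

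The levels of the heavy chains differed widely between cell lineages, by up to 39.2-fold from the lowest to the highest line, while B2M lay between 55.9 and 158 in every line. HLA-C was the most abundant heavy chain in LNCaP, LNCaP-abl, VCaP and VCaP-CR, and HLA-E was the most abundant in LAPC4 and LAPC4-CR. All 3 heavy chains were lowest in VCaP-CR, the line with the highest B2M level. In the LNCaP pair all 3 heavy chains were higher in the resistant line, and in the VCaP pair all 3 were lower in it. In bulk RNA, fewer expressing cells and less RNA per cell cannot be told apart.

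The bases before the start of HLA-B, HLA-C and B2M are shown here because these genes had different patterns across the lines. The sequences are the 250 bases upstream of the start in RefSeq (build GRCh38.p14), which are those of the reference genome and not of the alleles of these lines. Capitals mark matches, on either strand, to GAAANNGAA, the core of an interferon-stimulated response element, to the same core with its gap shifted, GAANNGAAA, and to GGGGATTCC, a kappa B site known from class I promoters.
HLA-B, chr6:31357180-31357429, minus strand: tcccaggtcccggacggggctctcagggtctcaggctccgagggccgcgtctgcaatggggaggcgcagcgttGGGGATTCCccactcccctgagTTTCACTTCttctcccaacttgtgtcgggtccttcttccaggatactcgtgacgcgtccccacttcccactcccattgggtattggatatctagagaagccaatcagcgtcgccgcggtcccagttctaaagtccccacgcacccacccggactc
HLA-C, chr6:31272093-31272342, minus strand: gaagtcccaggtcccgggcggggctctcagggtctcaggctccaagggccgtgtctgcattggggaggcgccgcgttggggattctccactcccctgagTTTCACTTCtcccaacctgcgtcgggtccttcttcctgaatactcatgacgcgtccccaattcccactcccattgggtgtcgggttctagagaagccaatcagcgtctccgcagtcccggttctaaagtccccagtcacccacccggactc
B2M, chr15:44711267-44711516, plus strand: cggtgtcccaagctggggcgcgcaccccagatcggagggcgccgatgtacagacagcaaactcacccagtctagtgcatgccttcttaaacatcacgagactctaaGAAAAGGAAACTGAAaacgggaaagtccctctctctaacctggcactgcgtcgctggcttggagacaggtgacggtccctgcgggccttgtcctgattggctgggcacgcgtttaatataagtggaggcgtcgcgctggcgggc

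The shifted core stood in HLA-B and HLA-C and in 7.66% of 35116 promoter windows of 300 bases. It was added to the search after the promoters had been seen. The kappa B letters stood in HLA-B and in 0.285% of all windows. HLA-C held no exact match to them, which says nothing of the factor. B2M held overlapping copies of GAAANNGAA, a match found in 8.11% of all windows. The letters TGACGTCA, a cyclic AMP response element found in 1.85% of windows, were in 0 of the 10 windows of the 8 members listed. The upstream bases of HLA-B and HLA-C were 89% identical, at 226 of 254 aligned positions.

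HLA-B, a heavy chain that presents peptides to CD8 T cells, is listed at position 31429628 to 31432944 of chromosome 6 in the coordinates of the deposited tables, whose build the submitters' processing notes give as hg18. In scaled FPKM, the LNCaP pair stood at 8.46 (sensitive) and 14.5 (resistant), the VCaP pair at 2.73 and 0.884, and the LAPC4 pair at 2.33 and 2. The LNCaP lines were the highest pair and VCaP-CR the lowest line, while VCaP, LAPC4 and LAPC4-CR lay within overlapping counting intervals. HLA-B was 1.72-fold higher in LNCaP-abl than in LNCaP (1.47 to 2.01). In VCaP-CR it was 3.09-fold lower than in VCaP (2.11 to 4.58), from 82 and 43 counts. In the LAPC4 pair the ratio of the sensitive to the resistant line was 1.16 (0.886 to 1.52).

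HLA-C, which presents peptides and is also a ligand of killer-cell immunoglobulin-like receptors, lies at 31344505 to 31347886 of chromosome 6 in the same coordinates. The sensitive and the resistant line had 27.3 and 47.3 scaled FPKM in the LNCaP pair, 3.12 and 1.30 in the VCaP pair, and 6.23 and 6 in the LAPC4 pair. The order of lineages was thus LNCaP, then LAPC4, then VCaP, with no overlap between the 3 lineages and a 36.5-fold range. HLA-C was 1.73-fold higher in LNCaP-abl (1.58 to 1.90) and 2.40-fold lower in VCaP-CR (1.68 to 3.46). LAPC4 and LAPC4-CR could not be separated by counting error, with a ratio of 1.04 (0.874 to 1.23).

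HLA-E, a conserved heavy chain that displays leader peptides of other class I chains to natural killer cells through CD94/NKG2A, lies at 30565223 to 30569961 of chromosome 6. LNCaP had 4.30 scaled FPKM and LNCaP-abl 6.84, VCaP 1.01 and VCaP-CR 0.312, LAPC4 12.2 and LAPC4-CR 7.05. LAPC4 was highest for this gene alone among the 3 heavy chains. The neighbouring lines LNCaP-abl and LAPC4-CR had overlapping intervals, 5.99 to 7.77 and 6.45 to 7.69. HLA-E was 1.59-fold higher in LNCaP-abl (1.27 to 2), 3.24-fold lower in VCaP-CR (1.69 to 6.49) and 1.73-fold lower in LAPC4-CR (1.53 to 1.97). The VCaP-CR value rests on 15 counts.

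B2M, the light chain that every class I heavy chain needs to fold, is encoded outside the major histocompatibility complex, at 42790967 to 42797651 of chromosome 15 in the coordinates of the deposited tables. In scaled FPKM, the LNCaP pair stood at 90.5 (sensitive) and 155 (resistant), the VCaP pair at 103 and 158, and the LAPC4 pair at 63.3 and 55.9. The range was 2.82-fold, narrower than for any other member. LNCaP-abl and VCaP-CR had overlapping intervals, and both LAPC4 lines were below the other 4. B2M was 1.72-fold higher in LNCaP-abl (1.61 to 1.83), 1.53-fold higher in VCaP-CR (1.44 to 1.62) and 1.13-fold lower in LAPC4-CR (1.06 to 1.21).

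**Figure D1:**
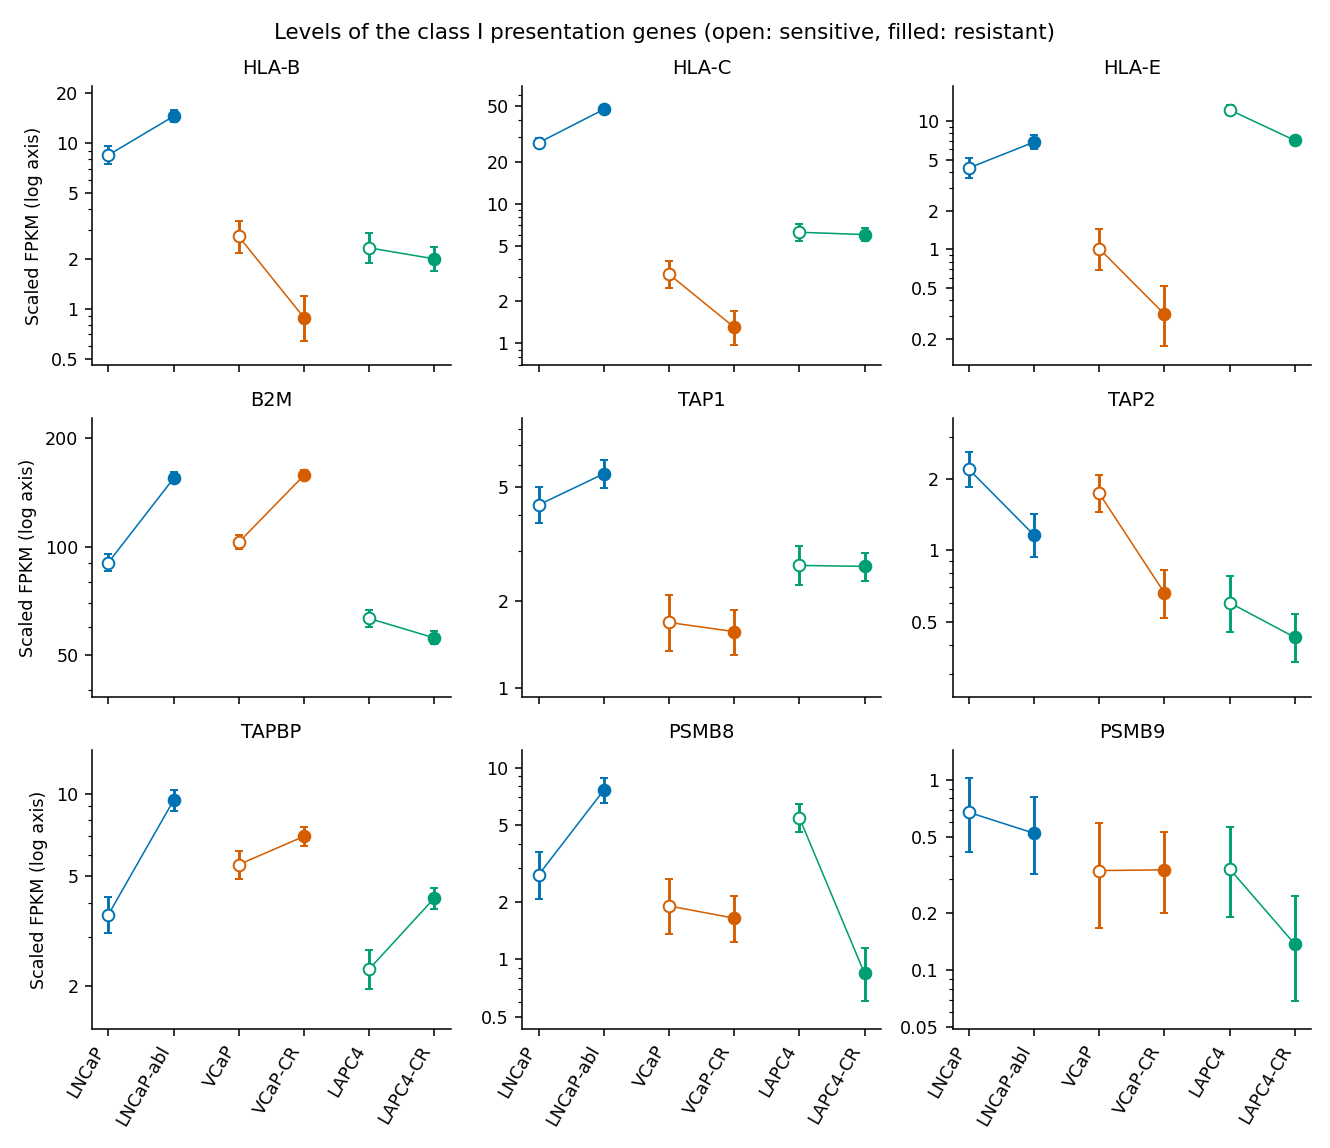
Scaled FPKM of each of the 9 genes in the 6 lines, each panel with its own log axis; bars are 95% counting intervals from 1 library per line and lines join the members of a pair. HLA-B, HLA-C and HLA-E fall to 0.884, 1.30 and 0.312 in VCaP-CR, where B2M stands at 158.

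Because the heavy-chain genes are near-identical in sequence, reads could be split between them, and how the counting treated such reads, or reads that differ from the reference allele, is not given in the sources used here. The sum of HLA-B, HLA-C and HLA-E is therefore given beside the single genes. LNCaP had a sum of 40.1 and LNCaP-abl 68.7, VCaP 6.86 and VCaP-CR 2.49, LAPC4 20.8 and LAPC4-CR 15.1. The resistant line was 1.71-fold higher in the LNCaP pair, 2.75-fold lower in the VCaP pair and 1.38-fold lower in the LAPC4 pair. Summing all 10 class I genes and pseudogenes listed kept these directions, at 1.79-fold higher, 1.81-fold lower and 1.18-fold lower. The wider sum moved the VCaP fold most.

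B2M exceeded the summed heavy chains in every line, but by very different factors. Its ratio to their sum was 2.26 in both LNCaP and LNCaP-abl, 3.04 in LAPC4 and 3.72 in LAPC4-CR. In VCaP it was 15.1 and in VCaP-CR 63.3. Against the sum of all 10 class I genes the ratio was 1.68, 1.61, 2.69 and 2.80 in the LNCaP and LAPC4 lines in the same order, 11.6 in VCaP and 32.2 in VCaP-CR. In the LNCaP pair B2M and the heavy chains were thus higher by nearly the same factor, whereas in the VCaP pair they moved in opposite directions.

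**Figure D2:**
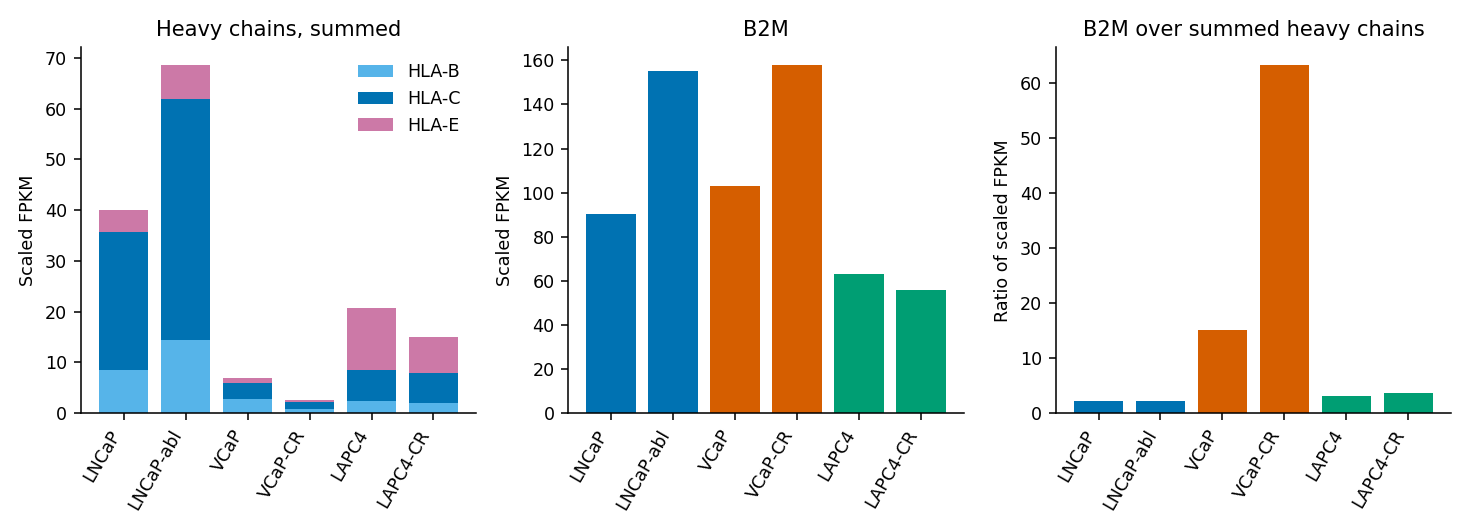
Bars give, for the 6 lines, the stacked scaled FPKM of HLA-B, HLA-C and HLA-E, the scaled FPKM of B2M, and the ratio of B2M to the 3 heavy chains summed; each bar is 1 library. The ratio is 2.26 in LNCaP and LNCaP-abl and 63.3 in VCaP-CR.

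The make-up of the heavy-chain sum also followed the lineage. In the sensitive and the resistant line, HLA-C took 68.2% and 68.9% of it in the LNCaP pair, 45.4% and 52.0% in the VCaP pair, and 30.0% and 39.8% in the LAPC4 pair. HLA-E took 58.8% in LAPC4 and 46.9% in LAPC4-CR, against 9.96% to 14.8% in the other 4 lines.

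The lineages were compared by edgeR's quasi-likelihood test on the counts, with 2 libraries per lineage, state as a covariate and Benjamini-Hochberg adjustment over 17410 genes. These 3 comparisons were added after the levels above had been seen and are not independent of them. The 2 libraries of a lineage are a sensitive line and the resistant line named after it, so each lineage rests on a single parental line. The adjusted p sets a difference against how much the resistant-minus-sensitive change differs between pairs, not against other parental lines. VCaP alone was grown in DMEM, so medium is mixed into the comparisons with VCaP. Between VCaP and LNCaP lines, 3 of the 8 tested members were lower in VCaP and 0 were higher, where 2.54% of all genes were lower and 3.29% higher (442 and 572 genes, or 748 and 491 without TMM factors). The 3 were HLA-C, with a log2 difference of -4.11 (SE 0.55, edgeR adjusted p = 0.0119), HLA-E, at -3.25 (SE 0.62, adjusted p = 0.0334), and HLA-B, at -2.78 (SE 0.61, adjusted p = 0.0495). TAP1 came next, at -1.58 (edgeR adjusted p = 0.0538), while B2M differed by 0.12 (SE 0.35) and TAPBP by 0.10 (SE 0.37).

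The call for HLA-C held when any 1 of the 6 libraries was left out, with a largest edgeR adjusted p of 0.041. The calls for HLA-B and HLA-E rested on single libraries. Without LNCaP-abl their log2 differences were -1.93 and -2.30 (edgeR adjusted p = 0.106 and 0.0522), and without VCaP-CR they were -1.89 and -2.50 (edgeR adjusted p = 0.301 and 0.216). Leaving out 1 library at a time gave differences from -3.77 to -1.89 for HLA-B, from -4.95 to -3.35 for HLA-C and from -4.13 to -2.30 for HLA-E. With protein-coding genes only, HLA-B and HLA-E kept differences of -2.67 and -3.15 but passed the threshold no longer (edgeR adjusted p = 0.0701 and 0.0533), and HLA-C stayed called. TAP1 passed it with DESeq2 (adjusted p = 0.00379), with edgeR without TMM factors (0.0398) and with edgeR without the filter on low values (0.0497). Between LAPC4 and LNCaP lines only HLA-C was called, lower in LAPC4 by a log2 difference of -2.60 (SE 0.50, edgeR adjusted p = 0.0473), where 1.52% of all genes were lower and 1.6% higher. That call was lost without LNCaP-abl (edgeR adjusted p = 0.135), with protein-coding genes only (0.0657) and with limma (adjusted p = 0.0561). Between LAPC4 and VCaP lines only HLA-E was called, higher in LAPC4 by 3.95 (SE 0.62, edgeR adjusted p = 0.0129), against 5.99% of all genes higher and 5.49% lower (1042 and 956 genes, or 1397 and 802 without TMM factors). That call was lost without VCaP-CR (edgeR adjusted p = 0.065).

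For the transporter and the loading factor, the promoter bases are shown because the levels of TAP2 and TAPBP changed in opposite directions in the 3 pairs. Capitals mark GAAANNGAA or GAANNGAAA, on either strand.
TAP1, chr6:32853705-32853954, minus strand: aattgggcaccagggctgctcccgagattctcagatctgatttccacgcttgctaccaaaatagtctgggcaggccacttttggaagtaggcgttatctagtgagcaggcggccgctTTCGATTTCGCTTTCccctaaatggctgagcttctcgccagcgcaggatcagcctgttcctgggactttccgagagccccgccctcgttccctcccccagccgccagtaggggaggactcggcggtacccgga
TAP2, chr6:32838740-32838989, minus strand: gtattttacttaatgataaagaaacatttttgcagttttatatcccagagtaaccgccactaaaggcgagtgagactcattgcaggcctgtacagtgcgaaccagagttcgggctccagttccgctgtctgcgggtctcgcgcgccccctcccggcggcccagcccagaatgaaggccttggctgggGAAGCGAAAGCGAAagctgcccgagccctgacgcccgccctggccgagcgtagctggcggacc
TAPBP, chr6:33314079-33314328, minus strand: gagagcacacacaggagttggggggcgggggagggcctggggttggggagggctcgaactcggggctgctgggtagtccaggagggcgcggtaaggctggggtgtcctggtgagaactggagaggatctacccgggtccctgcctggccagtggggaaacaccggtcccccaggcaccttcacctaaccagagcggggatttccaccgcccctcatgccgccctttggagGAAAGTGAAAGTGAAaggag

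All 3 of these promoters held the response element core, TAP2 in both spellings and TAP1 and TAPBP in overlapping copies. Whether these matches bear on the levels of the 3 genes was not tested. RefSeq lists a second TAP1 start, whose window held TTCNNNGAA, a gamma-activated site spelling found in 7.66% of windows.

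TAP1, the first transporter subunit, lies at 32920964 to 32929733 of chromosome 6 in the deposited coordinates. The sensitive and the resistant line had 4.34 and 5.57 scaled FPKM in the LNCaP pair, 1.69 and 1.57 in the VCaP pair, and 2.67 and 2.65 in the LAPC4 pair. The order of lineages was that of HLA-C, and the states within a lineage lay close together. The resistant line was 1.28-fold higher in the LNCaP pair (1.07 to 1.55). The resistant-to-sensitive ratio was 0.925 (0.691 to 1.24) in the VCaP pair and 0.992 (0.819 to 1.20) in the LAPC4 pair.

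TAP2, its partner subunit, lies at 32889522 to 32914577 of chromosome 6. LNCaP had 2.20 scaled FPKM and LNCaP-abl 1.16, VCaP 1.74 and VCaP-CR 0.661, LAPC4 0.601 and LAPC4-CR 0.429. The resistant line was the lower one in all 3 pairs, although the sensitive and resistant lines overlapped as groups. TAP2 was 1.89-fold lower in LNCaP-abl (1.45 to 2.48) and 2.64-fold lower in VCaP-CR (1.96 to 3.57). In the LAPC4 pair the ratio of sensitive to resistant was 1.4 (0.970 to 2.01). The entry overlaps HLA-DOB over 3282 bases, and HLA-DOB had 1 to 6 counts per library. Another protein-coding entry, XXbac-BPG246D15.9, overlaps TAP2 over 25056 bases and had 0 counts in every library. How reads in the shared stretches were assigned is unknown.

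TAP1 and TAP2 form a transporter from 1 copy of each, and their levels did not keep a fixed proportion here. TAP1 exceeded TAP2 in 5 of the 6 lines and lay within its counting interval in VCaP, where the values were 1.69 and 1.74.

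TAPBP, tapasin, lies at 33375449 to 33390142 of chromosome 6. In scaled FPKM, the LNCaP pair stood at 3.63 (sensitive) and 9.45 (resistant), the VCaP pair at 5.52 and 6.99, and the LAPC4 pair at 2.30 and 4.17. The resistant line was the higher one in all 3 pairs, again with overlap between the groups. TAPBP was 2.61-fold higher in LNCaP-abl (2.19 to 3.11), 1.27-fold higher in VCaP-CR (1.10 to 1.47) and 1.82-fold higher in LAPC4-CR (1.52 to 2.19). It was the only member with a higher value in all 3 pairs, as 16.4% of tested genes were, and TAP2 was the only tested member with a lower value in all 3, as 17% of tested genes were.

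PSMB8 and PSMB9, also called LMP7 and LMP2, are catalytic subunits of the immunoproteasome. The bases before one of the RefSeq starts of PSMB8 are shown because this gene had the largest change of the 9. Capitals mark TTCNNNGAA, the gamma-activated site spelling.
PSMB8, chr6:32844048-32844297, minus strand: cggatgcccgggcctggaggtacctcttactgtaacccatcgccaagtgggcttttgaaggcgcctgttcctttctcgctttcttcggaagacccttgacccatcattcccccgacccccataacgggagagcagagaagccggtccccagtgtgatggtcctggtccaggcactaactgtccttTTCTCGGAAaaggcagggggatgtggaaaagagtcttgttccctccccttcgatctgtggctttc

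A GAAANNGAA match of PSMB8 ran across this start and a GAANNGAAA match lay after it, so neither stands whole in the printed bases. The window of the other PSMB8 start held none of the letters searched. PSMB9 and TAP1 are read in opposite directions from starts 488 bases apart in RefSeq.

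PSMB8 lies at 32916472 to 32920458 of chromosome 6 in the deposited coordinates. The sensitive and the resistant line had 2.76 and 7.63 scaled FPKM in the LNCaP pair, 1.90 and 1.64 in the VCaP pair, and 5.48 and 0.844 in the LAPC4 pair. The highest line was resistant and so was the lowest. PSMB8 was 2.76-fold higher in LNCaP-abl (2.01 to 3.84) and 6.50-fold lower in LAPC4-CR (4.57 to 9.43), from 146 and 41 counts in the latter pair. In the VCaP pair the ratio of resistant to sensitive was 0.860 (0.557 to 1.34).

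PSMB9 lies at 32919891 to 32955342 of chromosome 6, an entry that spans all 8770 bases of TAP1 and 568 bases of PSMB8. LNCaP had 0.676 scaled FPKM and LNCaP-abl 0.525, VCaP 0.334 and VCaP-CR 0.337, LAPC4 0.341 and LAPC4-CR 0.137. These values rest on 11 to 21 counts per library. Whether the counting used strand is not given in the sources used here, so how reads in the shared stretches were assigned is unknown. The ratio of sensitive to resistant was 2.49 in the LAPC4 pair (1.07 to 5.99), and the intervals of the other pairs included 1.

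Set against PSMB5, the standard subunit whose place it takes, PSMB8 had levels of 3.21% (LNCaP) and 11.5% (LNCaP-abl), 4.03% (VCaP) and 3.77% (VCaP-CR), and 6.85% (LAPC4) and 1.39% (LAPC4-CR). The counting intervals of the LNCaP lines, 2.39% to 4.24% and 9.77% to 13.5%, did not overlap, nor did those of the LAPC4 lines, 5.75% to 8.11% and 0.994% to 1.89%. PSMB9 stood at 0.114% to 0.853% of PSMB6 in the 6 lines. PSMB10, the third inducible subunit and no member, stood at 13.4% (sensitive) and 23% (resistant) of PSMB7 in the LNCaP pair, 4.44% and 4.81% in the VCaP pair, and 10.3% and 12.7% in the LAPC4 pair. The PSMB10 intervals of the LAPC4 lines, 8.03% to 13.1% and 10.8% to 14.7%, overlapped.

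**Figure D3:**
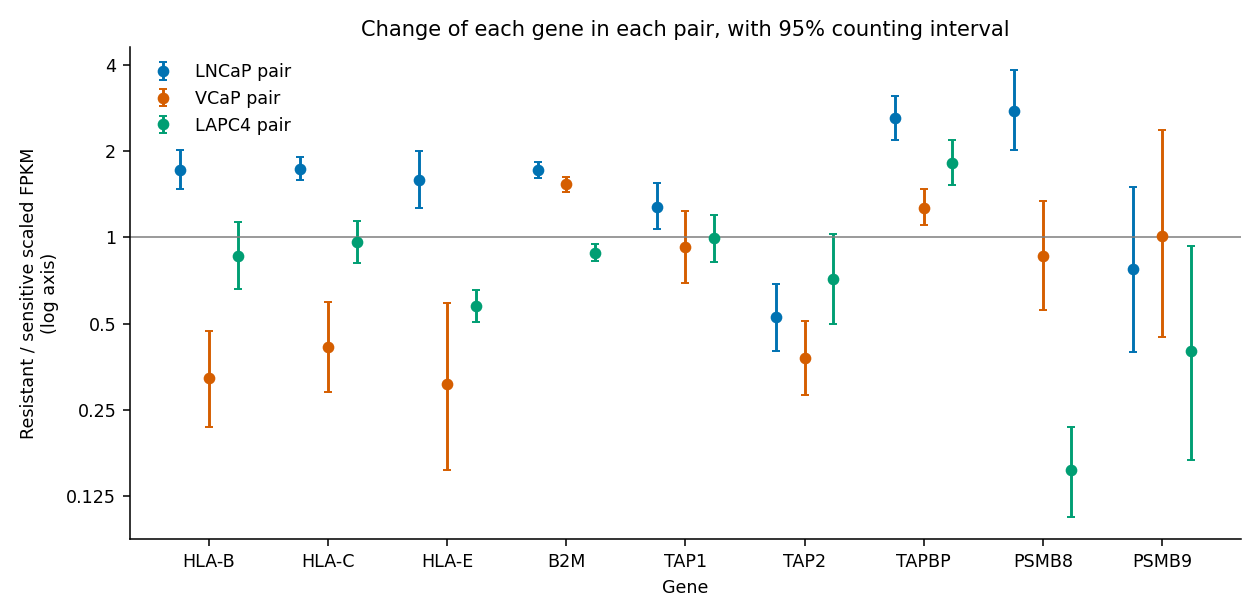
Ratio of resistant to sensitive scaled FPKM for each gene in the LNCaP, VCaP and LAPC4 pairs on a log axis, with 95% counting intervals from 1 library per line; the grey line is a ratio of 1. TAPBP is above 1 in all 3 pairs, TAP2 is below 1 in all 3, and PSMB8 runs from 2.76 in the LNCaP pair to 0.154 in the LAPC4 pair.

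Across the 3 pairs, edgeR with the parental line as a block and Benjamini-Hochberg adjustment called 0 genes higher and 0 lower of 17410, and so 0 of the 8 tested members. At an unadjusted p under 0.05, edgeR gave 864 genes higher (4.96%) and 694 lower (3.99%), among them TAPBP higher and TAP2 lower. Without TMM factors, these unadjusted counts were 659 higher and 921 lower. DESeq2 called 93 genes higher and 64 lower and limma called 0 and 0, with 0 members in either. TAPBP had a log2 change of 0.86 (SE 0.31, edgeR adjusted p = 0.528) and TAP2 one of -0.93 (SE 0.34, edgeR adjusted p = 0.532). For the other 6 members the edgeR change was smaller than 1.5 times its SE, and PSMB8, at -0.44, had the largest SE, 0.80.

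The spread between pairs on the log2(scaled FPKM + 1) scale shows the same. The mean change was 0.71 ± 0.44 for TAPBP and -0.48 ± 0.29 for TAP2 (SD, n = 3 pairs). It was -0.14 ± 0.85 for HLA-B, -0.04 ± 0.81 for HLA-C, -0.26 ± 0.71 for HLA-E and -0.25 ± 1.51 for PSMB8. For these 4 genes the SD exceeded the mean change. B2M, at 0.40 ± 0.51, also varied more than it changed.

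Counted pair by pair, a change of at least 2-fold on this scale was found for 2 members in the LNCaP pair, TAPBP at 1.18 and PSMB8 at 1.20, both higher, where 6.71% of genes were that much higher and 7.85% lower. In the VCaP pair 0 members passed 2-fold, against 2.57% of genes higher and 2.37% lower, with HLA-B nearest at -0.99. In the LAPC4 pair 1 member was lower, PSMB8 at -1.81, where 6.82% of genes were lower and 5.77% higher. These counts depend on the scale: in the VCaP pair, with 0.25 in place of 1 added before the log, 4 members (HLA-B, HLA-C, HLA-E and TAP2) were at least 2-fold lower, where 3.99% of all tested genes were. With 5 added, 0 members were at least 2-fold higher in the LNCaP pair, where 2.28% of genes were, and 0 at least 2-fold lower in the LAPC4 pair, where 2.83% were. The median change of the 9 genes was 0.71 in the LNCaP pair, with 7 above 0, -0.14 in the VCaP pair, with 3 above 0, and -0.16 in the LAPC4 pair, with 1 above 0. The median over all tested genes was -0.01, -0.01 and 0.00. With size factors over protein-coding genes the median of all tested genes shifted to -0.13, -0.02 and -0.11, and that of the 9 genes to 0.56, -0.15 and -0.25. With TMM factors HLA-C and TAP1 in the LAPC4 pair changed sign, to 0.05 and 0.07.

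All members but B2M lie in the major histocompatibility complex on chromosome 6, and the neighbouring genes moved with some of them. Between the outermost members, from 30565223 to 33390142, the tables hold 64 other protein-coding genes that were tested. In the VCaP pair 55 of these 64 were below 0, with a median change of -0.36 and quartiles of -0.58 and -0.20. The same median, -0.36, was found for the 139 genes in the next stretch of chromosome 6 toward higher coordinates, of which 112 were below 0. It was 0.03 for the 159 genes at lower coordinates, 0.24 for the 249 genes on the rest of the chromosome and -0.00 for 10724 genes elsewhere.

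In the same pair HLA-B, HLA-C, HLA-E and TAP2 changed by -0.99, -0.84, -0.62 and -0.72, each beyond the lower quartile of the 64 neighbours, while TAP1 and PSMB8 changed by -0.07 and -0.14 and TAPBP by 0.29. B2M, on another chromosome, changed by 0.61. The median of the 64 neighbours was 0.20 in the LNCaP pair, against 0.34 on the rest of the chromosome and 0.12 on other chromosomes, and 0.11 in the LAPC4 pair, against 0.13 and 0.08. The part of this regional shift in the change of the members was not tested.

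**Figure D4:**
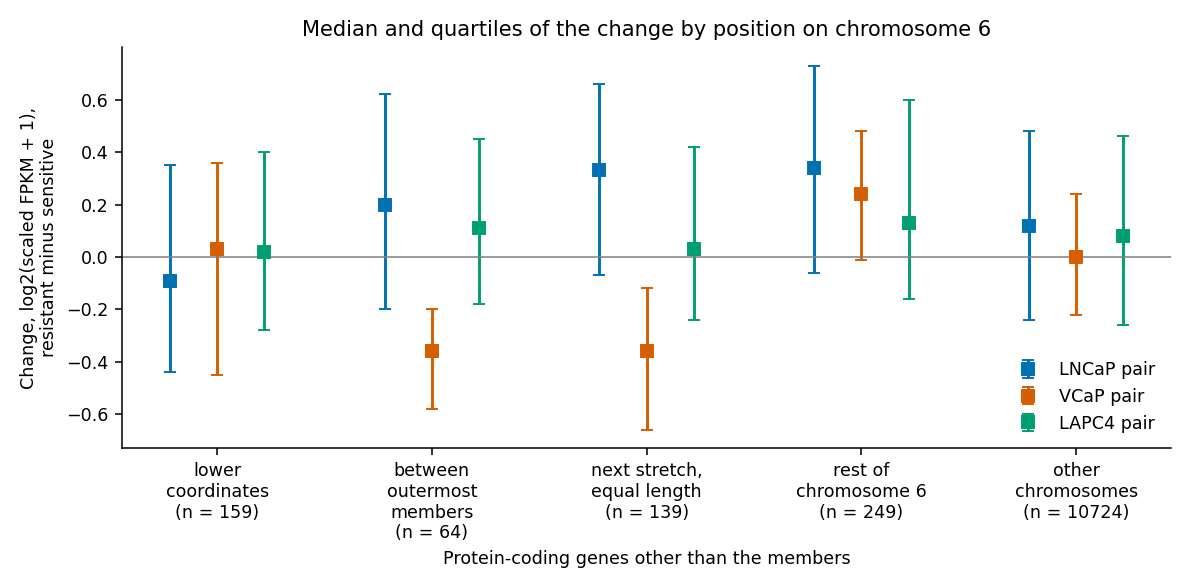
Median (square) and quartiles (bars) of the change in log2(scaled FPKM + 1), resistant minus sensitive, of protein-coding genes other than the 9, by place on chromosome 6 relative to the outermost members and on other chromosomes. In the VCaP pair the medians are -0.36 between the members and -0.36 in the next stretch, against 0.03, 0.24 and -0.00 elsewhere.

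The rest of the pathway was read from lists. In the test of resistant minus sensitive across the pairs, edgeR called 0 genes in each list. Between lineages edgeR did call list genes, such as FCGRT and MICA between VCaP and LNCaP lines. Those lineage calls are not described here. For all but the first list, counts at an unadjusted p under 0.05 across the pairs are given beside the changes. Changes are always in the order LNCaP, VCaP, LAPC4 pair. Of the 12 other class I and class I-like chains, 7 were tested, and their median change was 0.30 (LNCaP pair), 0.02 (VCaP pair) and 0.19 (LAPC4 pair). MICA, a stress-induced ligand of the NKG2D receptor, changed by 0.85, -0.21 and 1.6. FCGRT, the heavy chain of the neonatal Fc receptor, which also pairs with B2M, changed by -0.24, -0.55 and -0.34.

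All 8 genes of peptide loading and trimming were tested, with medians of 0.26, 0.46 and 0.17. In the VCaP pair 3 of the 8 were at least 2-fold higher. The chaperone HSPA5 changed by -0.01, 1.69 and 0.20 and PDIA3, the disulfide isomerase bound to tapasin, by 0.25, 1.5 and 0.67. ERAP1, which trims peptides in the endoplasmic reticulum, changed by 0.97, 0.18 and 0.14, TAPBPL, a relative of tapasin, by 0.70, 0.27 and -0.37, and the chaperone CANX by 0.12, 0.05 and 0.56. At an unadjusted p 2 genes of the list were higher in edgeR, PDIA3 and CALR, a chaperone of the loading complex.

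Among the 9 proteasome counterparts and activators, all tested, 0 passed 2-fold in any pair. The medians were 0.20, -0.12 and 0.14, and 0 had an unadjusted edgeR p under 0.05. The activator subunits PSME1 and PSME2 changed by 0.78, -0.31 and -0.45 and by 0.65, -0.36 and 0.46. POMP, the assembly factor of the proteasome, changed by 0.91, 0.23 and -0.07, PSME3 by 0.11, 0.07 and 0.49, and the core subunit PSMA3 by -0.39, -0.26 and -0.46.

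Of 17 regulators of class I genes, 15 were tested, with medians of 0.41, 0.17 and -0.03 and 0 with an unadjusted edgeR p under 0.05. IFNGR2, a chain of the interferon gamma receptor, changed by 1.31, 0.28 and -1.31. PSMB8 changed by 1.20, -0.14 and -1.81 in the same pairs, and a link between these genes was not tested. The IFNGR2 entry shares 46864 bases with TMEM50B, so its counts are uncertain. IFNGR1, the ligand-binding chain, changed by 0.74, 0.36 and -0.45, IRF9, which completes the ISGF3 factor, by 0.85, -0.35 and -0.37, RFXAP by -0.25, 0.50 and 0.29, and RFX5 by -0.06, -0.08 and 0.69. The 2 regulators not tested were low: NLRC5, the class I transactivator, lay at 0.155 to 0.62 and IRF1 at 0.492 to 0.841.

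Class II genes lie in the same region. Of 13 class II presentation genes 4 were tested, with medians of -0.91, -2.72 and -0.13. HLA-DRB1, HLA-DRB5 and HLA-DMB passed the filter on low values through VCaP, at 10.4, 5.97 and 12.2. Their highest levels in any other line were 0.607, 0.846 and 2.4. HLA-DMA leaned on VCaP-CR to pass, at 6.05 there and 0.413 to 2.83 in the other lines. Genes kept for a high value in either line of a pair tend to be lower in its partner. The medians, changes and p-values of this list are therefore a description only. HLA-DRB1 changed by -0.68, -2.97 and -0.09, HLA-DRB5 by -0.70, -2.49 and -0.17 and HLA-DMB by -1.13, -2.96 and -0.27, and these 3 were lower at an unadjusted edgeR p. The HLA-DRB genes are near-identical copies, so their split is uncertain. HLA-DMA changed by -1.16, 2.32 and -0.01, and its entry overlaps the abundant gene BRD2 over 2057 bases. In VCaP itself HLA-DRB1 stood at 10.4 and HLA-DMB at 12.2, above the 2.73 of HLA-B, while HLA-DRA, the partner chain of HLA-DRB1, was at 0.235. CIITA, the class II transactivator, was between 0.229 and 0.361 in the 6 lines.

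**Figure D5:**
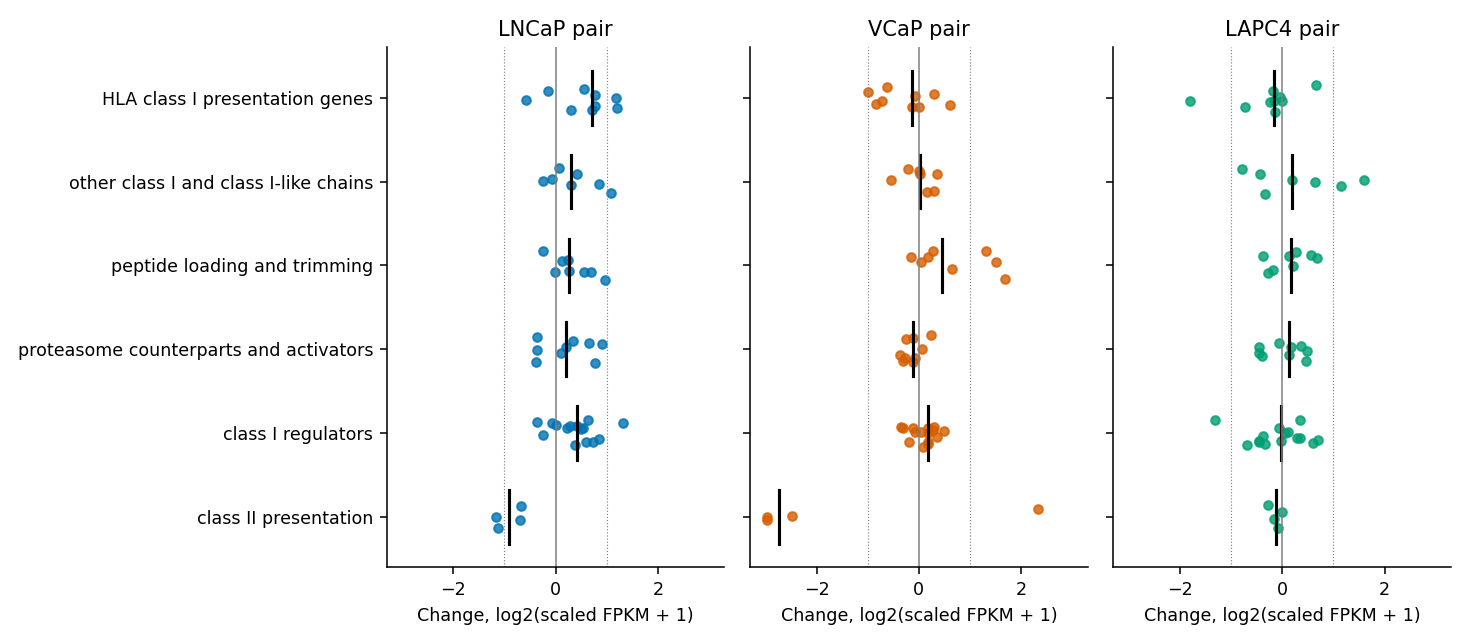
Change in log2(scaled FPKM + 1), resistant minus sensitive, for each of the 9 genes and each tested gene of the pathway lists, by pair; black bars are list medians, the grey line is 0 and dotted lines are 2-fold. The 9 genes have medians of 0.71, -0.14 and -0.16, and the class II genes -0.91, -2.72 and -0.13. Of the class II genes, HLA-DRB1, HLA-DRB5 and HLA-DMB passed the filter on low values through VCaP, and HLA-DMA leaned on VCaP-CR to pass it.

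The members' average profile over the 6 lines, the mean of their standardised log levels, had values of 0.55 (LNCaP), 1.08 (LNCaP-abl), -0.26 (VCaP), -0.51 (VCaP-CR), -0.23 (LAPC4) and -0.64 (LAPC4-CR). The members followed it unevenly. Their own Pearson r with it was 0.97 for HLA-B, 0.91 for HLA-C, 0.88 for TAP1, 0.83 for PSMB9 and 0.76 for PSMB8. It was 0.57 for TAP2, 0.45 for B2M, 0.38 for TAPBP and 0.30 for HLA-E. Of 6389 other protein-coding genes averaging at least 5 scaled FPKM, the 5 with the highest Pearson r to this profile over the 6 libraries were CXCR7 (0.996), DRG2 (0.993), C11orf71 (0.989), CIRBP (0.987) and C19orf53 (0.984). With 6 libraries and so many genes, such values are a description only. CXCR7, an atypical chemokine receptor, was at 22.1 in LNCaP and 97.4 in LNCaP-abl and between 0.732 and 2.98 in the other 4 lines.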

How the data were processed

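RNA was isolated with RNeasy kits and prepared with the SOLiD kit for total RNA, per the labels' protocols. The submitters' processing notes name HTSeq and hg18, without their roles. Aligner, annotation, strand setting and the treatment of reads that match several genes are each not given in the sources used here. The authors deposited a count and an FPKM value per gene. The deposited FPKM was rebuilt within 1% for 100.0% of genes from count, gene length and summed counts, so a few abundant RNAs can lower every other value. Gene length is a deposited column of another kind (bases).

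Entries with the same symbol were summed (345 symbols), and 1404 symbols of small and mitochondrial RNAs were left out. FPKM was divided by a median ratio per library over 12503 genes. Testing covered 17410 genes that averaged 1 scaled FPKM or more (11343 protein-coding). State was tested on counts with edgeR 4.0.16 (TMM, quasi-likelihood, R 4.3.3, threshold 5%), with the parental line as a block. Deviations from the group means correlated at 0.45, 0.70 and 0.57 within the pairs, whose names give the pairing. With 1 library per line, p-values measure how much the change differs between pairs, also in the lineage comparisons. Alternatives were DESeq2 1.42.0, limma 3.58.1, other filters, scalings and pseudocounts, and each library or pair left out.

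The members, lists and tests were chosen with earlier results of these data known. The text names all 9 members. From each list come genes edgeR called across the pairs, genes past 2-fold one way in all pairs, and the 2 largest changes per pair. CALR, PSMB10, HLA-DRA, NLRC5, IRF1, CIITA, CORO1A and CD68 were named after their values were seen. Some named-gene results are not reported here. Promoter bases come from RefSeq (GRCh38.p14): 8 of 9 members matched, with HLA-E not among them. No coordinates of the builds were mixed. Counting intervals are exact Poisson intervals, or exact conditional ones for ratios of 2 counts.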

Additional observations from a re-analysis of the deposited data

Results flagged for a closer look

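The change of PSMB8 went opposite ways in different lines, and the difference between the LNCaP pair and the LAPC4 pair was 3.01 on the log2(scaled FPKM + 1) scale. For IFNGR2 the same difference was 2.62. For HLA-DMA the LNCaP change less the VCaP change was -3.48. Each was noted because the single library pair of one line moved at least 2-fold up and that of the other at least 2-fold down; with 1 library per line and state, these differences were not tested. PSMB9 shares 568 bases with PSMB8, and the overlaps of IFNGR2 with TMEM50B and of HLA-DMA with BRD2 make their counts uncertain. HLA-DMA also leaned on its level of 6.05 in VCaP-CR to pass the filter on low values. The HLA-DMA difference is therefore a description only.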

How the results depend on the processing

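Members called across the 3 pairs stayed at 0 in all 9 alternatives, and the median change of the members kept its direction in all 15. With limma, without TMM, with protein-coding genes only and without the replicate block, 0 genes of any kind were called. The count of 0 members says nothing about the members in those alternatives. Genes called across the pairs numbered 93 higher and 64 lower with DESeq2, and 65 and 50 without the filter on low values. Leaving out 1 pair at a time gave 0 to 53 higher and 1 to 35 lower, the most without LAPC4 and LAPC4-CR. Without the replicate block, edgeR called 0 genes either way, and HLA-B and HLA-C reversed to 0.35 and 0.56; TAP1 reversed to -0.01 with protein-coding genes only. Leaving out 1 pair moved HLA-B from -0.89 to 0.29, HLA-C from -0.63 to 0.37, TAP1 from -0.06 to 0.17 and PSMB8 from -1.49 to 0.66.

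The lineage comparisons and their alternatives were chosen after seeing the data. VCaP minus LNCaP gave 1178 genes higher and 1296 lower with DESeq2, 1363 and 1152 without the filter, 325 and 175 with protein-coding genes only, and 748 lower without TMM; leaving out 1 library gave 201 to 1362 higher and 69 to 1430 lower. Members lower numbered 4 with DESeq2, without TMM and without the filter, 1 with protein-coding genes only and 1 to 4 with 1 library left out. LAPC4 minus LNCaP gave 797 higher and 800 lower with DESeq2, 170 and 133 with limma, 862 and 924 without the filter, 132 and 116 with protein-coding genes only, and 225 to 616 and 217 to 668 with 1 library left out. Members lower there numbered 3 with DESeq2, 0 with limma, 2 without the filter, 0 with protein-coding genes only and 0 to 3 with 1 library left out. LAPC4 minus VCaP gave 1719 higher and 1578 lower with DESeq2, 1690 and 1855 without the filter, and 175 to 1720 and 286 to 1571 with 1 library left out. Members higher there numbered 2 with DESeq2 and 0 to 2 with 1 library left out, and members lower 0 to 1.

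Small lineage differences changed sign. VCaP minus LNCaP was -0.06 for B2M and -0.08 for TAPBP without TMM. With 1 library left out it ran from -0.15 to 0.41 for B2M, from -0.29 to 0.49 for TAPBP and from -2.73 to 0.22 for PSMB8. LAPC4 minus LNCaP ran from -0.12 to 1.72 for HLA-E and from -2.81 to 0.55 for PSMB8, and LAPC4 minus VCaP from -0.45 to 1.44 for HLA-B and from -1.42 to 1.94 for PSMB8.

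With a pseudocount of 5, the members at least 2-fold higher in the LNCaP pair and lower in the LAPC4 pair numbered 0 and 0. In the VCaP pair 4 were lower with a pseudocount of 0.25 and 1 with size factors over protein-coding genes. The summed heavy chains in deposited FPKM were 43.4 in LNCaP, 72.5 in LNCaP-abl, 5.92 in VCaP and 16.2 in LAPC4-CR, also 16.2 with TMM factors. With all HLA class I genes and pseudogenes they were 53.9, 96.3, 8.87, 4.9, 23.6 and 20 in LNCaP, LNCaP-abl, VCaP, VCaP-CR, LAPC4 and LAPC4-CR. As a ratio of counts, PSMB9 stood at 2.87%, 1.93%, 3.12%, 3.31%, 1.26% and 0.445% of PSMB6 in the same lines, since FPKM also divides by the longer PSMB9 entry. The cause of the other shifts was not tested. Depth limits PSMB9, at 11 to 21 counts, and HLA-E in VCaP-CR, at 15 counts.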
